A study of Mus musculus with 4 samples.

Results

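The genes described here were silent in both wild-type (WT) libraries and present in at least 1 library from mice bred to delete floxed Ezh2 in T cells (KO). A gene was included when its level was below 1 FPKM (fragments scaled to transcript length and to library depth) in WT iNKT and in WT CD44hi cells and at least 2 FPKM in KO iNKT or KO CD44hi cells. Unnamed and predicted genes, small RNA genes, antigen receptor segments, pseudogenes, the Hox, Klra and Zbtb families and Bmpr1a were left out by name. The rule found 116 of 18591 named genes, of which 8508 were below 1 FPKM in both WT libraries. The genes were chosen by their measured FPKM in all 4 libraries, so their levels and counts are a description and carry no test.

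The study sequenced RNA from sorted mouse spleen cells on a C57BL/6 background, with 1 library for each of 4 groups. Invariant natural killer T (iNKT) cells, which recognise lipids on CD1d, and CD4+ T cells with high CD44, a mark of antigen experience (CD44hi), each came from mice labelled WT and from Ezh2fl/fl CD4-Cre mice. In the latter, Cre driven by CD4 regulatory elements is active from T cell development in the thymus on. The labels give no age, sex or number of mice, and whether cells binding the CD1d tetramer were removed from the CD44hi sort is not stated.

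The histone methyltransferase Ezh2 belongs to Polycomb repressive complex 2, which methylates histone H3 on lysine 27 (H3K27me3). In many cell types this mark lies over CpG-rich promoters of genes that the cell keeps off, among them regulators of development, adhesion molecules and signalling receptors of other lineages. In T cells Ezh2 is known for keeping genes of alternative fates silent.

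Levels of a gene are given below as 4 FPKM values, first the iNKT pair and then the CD44hi pair, with WT before KO in each; a value of 0 means that the gene was listed at 0. Depth differed between the libraries: 1 fragment in a transcript of 2 kb was worth an estimated 0.108 and 0.0997 FPKM in the iNKT pair and 0.0292 and 0.0220 FPKM in the CD44hi pair. Ratios are KO over WT, with the 95% exact (Clopper-Pearson) interval from estimated fragments, which covers counting error only. No ratio is given where WT was listed at 0. Ezh2 itself was at 15.3, 16.8, 28.9 and 18.5 FPKM; reads from exons outside the floxed part count towards these values, so they do not check the KO label. Cd3e, a chain of the T cell receptor complex, was between 307 and 357 FPKM in all 4 libraries. The Y-linked gene Eif2s3y was at 0, 0, 22.7 and 0 FPKM, and Xist, a gene of female cells, was at 55.3, 76.8, 46.8 and 80.0 FPKM. WT CD44hi thus held Y-linked RNA together with Xist, and KO CD44hi held Xist without Eif2s3y. A difference in donor sex and genotype therefore cannot be told apart in the CD44hi pair. In bulk RNA, fewer cells of a type and less RNA per cell cannot be told apart either.

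Of the 8508 silent genes, 116 (1.36%) reached 2 FPKM in a KO library, 70 (0.823%) in KO iNKT and 61 (0.717%) in KO CD44hi. With the genotypes exchanged, 42 of 8285 genes below 1 FPKM in both KO libraries (0.507%) reached 2 FPKM in a WT library, 13 (0.157%) in WT iNKT and 29 (0.35%) in WT CD44hi. The Y-linked genes Eif2s3y and Ddx3y, at 22.7 and 11.5 FPKM in WT CD44hi, are among those 29 and thus among the 42. A total of 15 genes (0.176%) reached 2 FPKM in both KO libraries, which is 21.4% of those gained in KO iNKT and 24.6% of those gained in KO CD44hi; with the genotypes exchanged this number was 0. Another 55 genes were gained in KO iNKT alone and 46 in KO CD44hi alone. Many gained genes stayed near the limit: 34 of 70 genes in KO iNKT and 39 of 61 in KO CD44hi lay below 3 FPKM, with medians of 3.12 and 2.65 FPKM. Among members at 1 FPKM or more in either library of a pair, 67 of 78 (85.9%) were 2-fold higher in KO on the log2(FPKM + 1) scale in iNKT and 54 of 78 (69.2%) in CD44hi, beside 6.03% of all 9705 and 2.37% of all 10220 genes measured. The rule itself makes the members' shares high, so nothing is read from them.

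**Figure D1:**
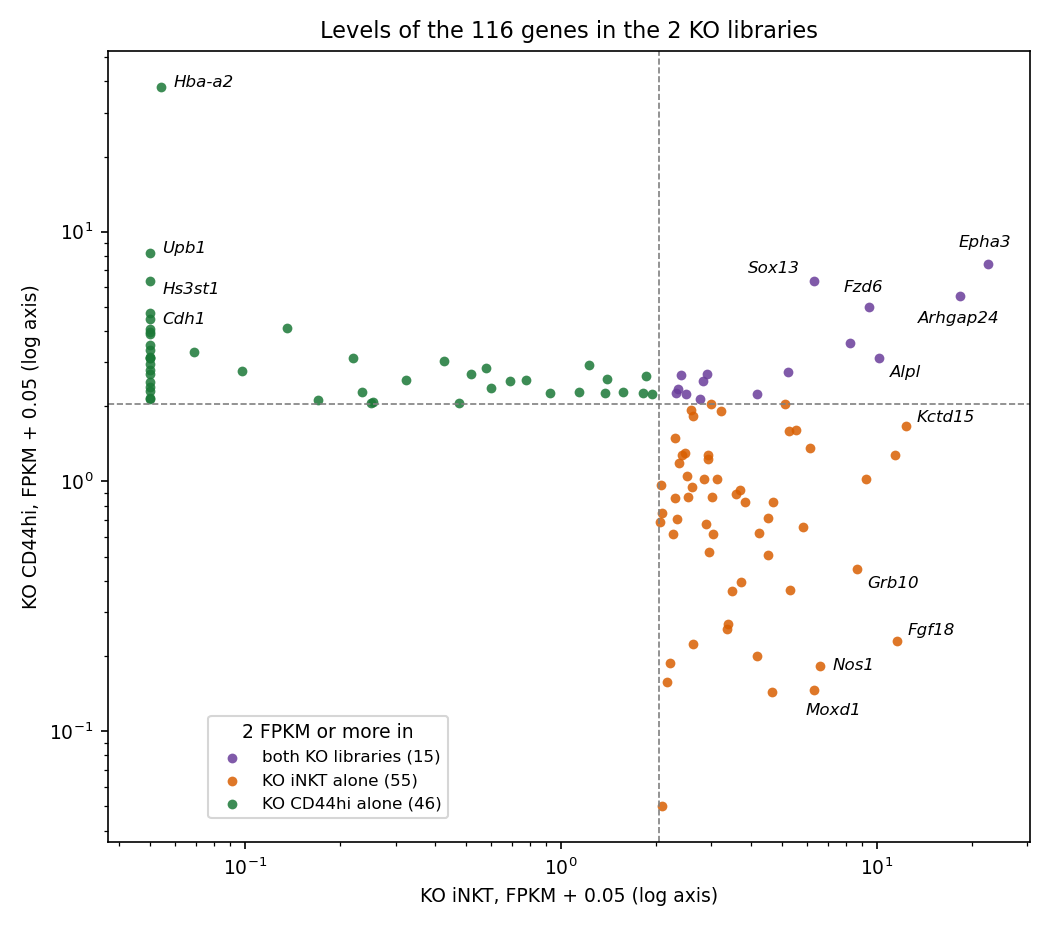
Level of each of the 116 genes in KO iNKT (x axis) and KO CD44hi (y axis), as FPKM + 0.05 on log axes; colours show in which KO library the gene reached 2 FPKM, and dashed lines mark that limit. The 15 genes gained in both lie in the upper right, with Epha3 highest in KO iNKT (22.4 FPKM), and a column of genes gained in KO CD44hi alone lies at the left edge, where KO iNKT is listed at 0.

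The promoter sequence of 6 members is shown because H3K27me3 is known to favour CpG-rich promoters and these genes run from many CG dinucleotides to none. Each line gives 120 bases before the RefSeq start (GRCm38.p6), 5′ to 3′ on the gene's strand, with every CG in capitals. Epha3, Sox13 and Akap6 were gained in both KO libraries, Fgf18 and Grb10 in KO iNKT alone, and Hba-a2 was the highest gene in KO CD44hi.
Epha3 (chr16:63864176-63864295, minus strand): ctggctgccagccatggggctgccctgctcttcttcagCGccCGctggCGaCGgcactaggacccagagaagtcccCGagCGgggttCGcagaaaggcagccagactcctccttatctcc
Sox13 (chr1:133424213-133424332, minus strand): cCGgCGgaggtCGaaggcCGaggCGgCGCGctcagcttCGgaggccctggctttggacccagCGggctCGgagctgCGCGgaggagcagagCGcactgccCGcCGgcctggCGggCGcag
Akap6 (chr12:52699263-52699382, plus strand): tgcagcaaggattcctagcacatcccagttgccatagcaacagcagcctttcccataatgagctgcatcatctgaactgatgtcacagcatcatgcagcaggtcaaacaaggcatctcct
Fgf18 (chr11:33147401-33147520, minus strand): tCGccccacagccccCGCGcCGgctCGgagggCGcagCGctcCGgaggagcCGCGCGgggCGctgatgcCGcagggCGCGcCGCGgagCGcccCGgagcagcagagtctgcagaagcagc
Grb10 (chr11:12037421-12037540, minus strand): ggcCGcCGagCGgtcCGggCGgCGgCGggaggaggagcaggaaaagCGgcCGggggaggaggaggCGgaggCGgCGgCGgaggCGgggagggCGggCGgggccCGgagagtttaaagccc
Hba-a2 (chr11:32296372-32296491, plus strand): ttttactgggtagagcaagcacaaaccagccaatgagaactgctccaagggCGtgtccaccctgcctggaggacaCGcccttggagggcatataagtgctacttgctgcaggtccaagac
In these stretches there are 7 CG dinucleotides for Epha3, 17 for Sox13, 0 for Akap6, 19 for Fgf18, 17 for Grb10 and 2 for Hba-a2. Among the shared genes shown, Sox13 is thus CG-dense and Akap6 CG-free in this window. The genes were picked to show this range and do not stand for the set. A RefSeq promoter was matched for 92 of the 116 genes (79.3%), below the 80% set as a minimum, so the check of promoter composition over the whole set is void.

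A receptor kinase and a regulator of small GTPases had the highest KO iNKT levels of the 15 shared genes. Epha3 (GRCm38 chromosome 16, 63543534 to 63864175, minus strand), a receptor tyrosine kinase for ephrin-A ligands, was at 0.0513, 22.4, 0.362 and 7.39 FPKM. Both KO libraries lay far above both WT libraries, and KO iNKT was the higher of them. The CD44hi ratio was 20.4 (14.6 to 28.7), while the WT iNKT value stood for about 1 fragment, so the iNKT ratio of 438 has a lower bound of 113. Fzd6 (GRCm38 chromosome 15, 39006034 to 39038188, plus strand), a Frizzled receptor for Wnt ligands, was at 0.599, 9.38, 0.406 and 4.96 FPKM. Its ratio was 15.7 (9.03 to 31.7) in iNKT and 12.2 (8.48 to 18.1) in CD44hi, with intervals that overlap. Of 20 Eph receptors and ephrins silent in both WT libraries, 2 were members (Epha3 and Epha2), and of 53 silent genes of the Wnt and R-spondin pathway 1 was (Fzd6, 1.89%), beside 1.36% of all silent genes.

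Arhgap24 (GRCm38 chromosome 5, 102481391 to 102897937, plus strand), a GTPase-activating protein for Rac, was at 0.722, 18.3, 0.214 and 5.50 FPKM. Its ratios were close in both cell types, 25.3 (14.4 to 52.9) in iNKT and 25.7 (15 to 51.7) in CD44hi. Arhgap29, another GTPase-activating protein, was at 0.198, 2.31, 0.816 and 2.31 FPKM. It had the same level in both KO libraries but a higher WT level in CD44hi, giving ratios of 11.7 (4.86 to 31.2) and 2.82 (2.21 to 3.60). Akap6 (GRCm38 chromosome 12, 52699383 to 53155599, plus strand), a scaffold that anchors protein kinase A in heart and brain, was at 0.269, 8.21, 0.0731 and 3.54 FPKM. Its ratios were 30.5 (19.9 to 51.1) and 48.4 (31.7 to 80.8).

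Sox13 (GRCm38 chromosome 1, 133382303 to 133424377, minus strand), an HMG-box transcription factor known from gamma delta T cells, was at 0.873, 6.30, 0.0947 and 6.30 FPKM. It had the same level in both KO libraries from unequal WT levels, with ratios of 7.22 (4.21 to 12.8) in iNKT and 66.5 (31.8 to 190) in CD44hi that do not overlap in their intervals. The 5 gamma delta T cell markers in the files, Sox13 included, summed to 51.9, 62.4, 81.4 and 68.9 FPKM, and Sox13 was the 1 marker 2-fold higher in KO, of 4 measured in iNKT and of 5 in CD44hi, beside 6.03% and 2.37% of all measured genes. Of the same markers 1 was 2-fold lower in KO iNKT and 0 in KO CD44hi, beside 3.1% and 1.15%. The part of gamma delta T cells in the Sox13 values was not tested. Plag1, a zinc finger transcription factor, was at 0.131, 4.12, 0.166 and 2.18 FPKM, with ratios of 31.5 (10.8 to 160) and 13.2 (7.92 to 25.1).

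Alpl, the tissue non-specific alkaline phosphatase of bone and liver, was at 0.837, 10.1, 0.363 and 3.08 FPKM, with ratios of 12.1 (6.38 to 25.9) and 8.47 (5.07 to 15.1). Amph, which encodes amphiphysin, a protein of endocytosis at synapses, was at 0.0647, 2.28, 0.0351 and 2.21 FPKM. Its WT values stood for about 1 and 2 fragments, so the lower bounds of its ratios, 6.10 and 17.7, say more than the ratios of 35.2 and 62.9. Wwc1, which encodes the Hippo pathway scaffold KIBRA, was at 0, 2.36, 0.135 and 2.62 FPKM. Speg, a kinase of striated muscle, was at 0.498, 2.70, 0.135 and 2.09 FPKM. Both stayed below 3 FPKM in the KO libraries.

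Most of the remaining shared genes lay near the limits of the rule. Ptpdc1, a phosphatase, was at 0.613, 5.19, 0.703 and 2.69 FPKM. Scamp1, a membrane protein of secretory vesicles, was at 0.744, 2.86, 0.822 and 2.65 FPKM. Within each genotype the Scamp1 levels of iNKT and CD44hi were close. Wscd2 was at 0.537, 2.78, 0.902 and 2.46 FPKM. The X-linked gene Armcx6 was at 0.529, 2.45, 0.860 and 2.18 FPKM, with an iNKT ratio of 4.63 (1.74 to 15.5).

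**Figure D2:**
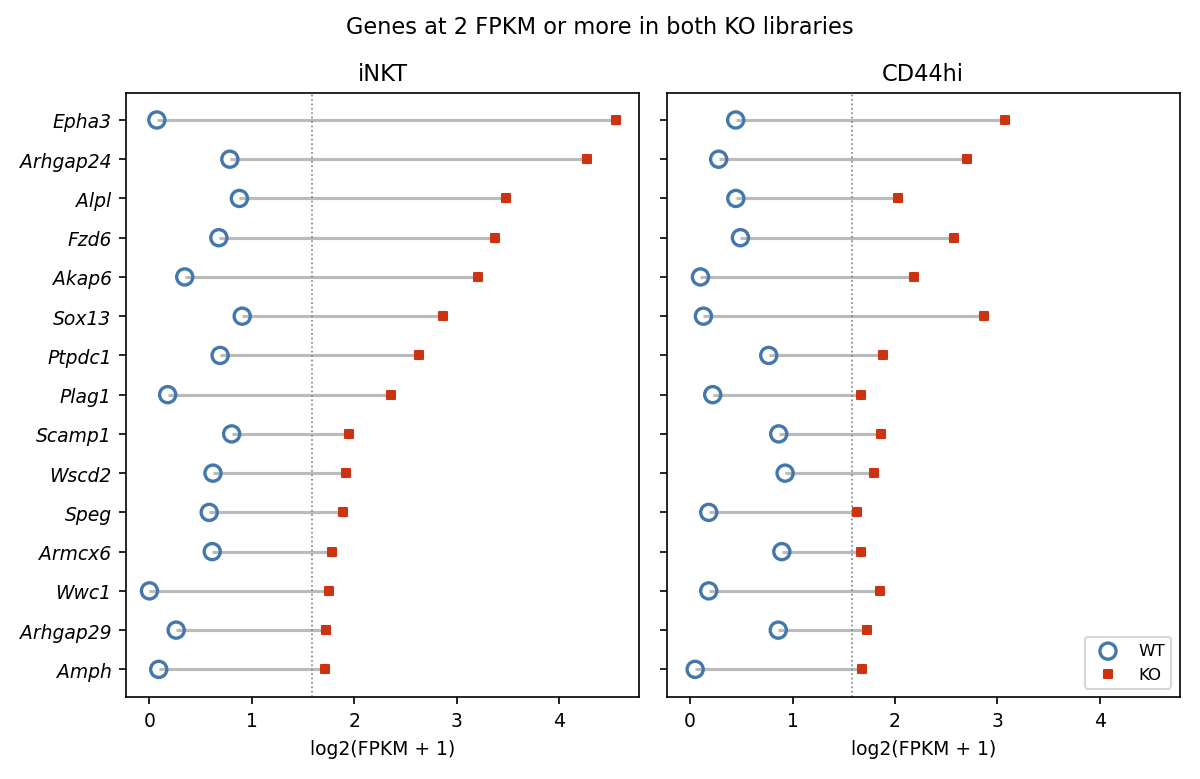
Levels of the 15 shared genes, which passed the limit in both KO libraries, as log2(FPKM + 1) in the iNKT pair (left) and the CD44hi pair (right); open circles are WT, squares are KO, each 1 library, and the dotted line is the limit of 2 FPKM. Epha3, Arhgap24 and Alpl lie furthest to the right in KO iNKT, whereas Sox13 is at 6.30 FPKM in both KO libraries.

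Among the 55 genes gained in KO iNKT alone, 14 were listed at 0 in WT iNKT, and the median ratio of the rest was 13.1. The highest was Kctd15 (GRCm38 chromosome 7, 34639014 to 34656732, minus strand), a BTB-domain protein that restrains AP-2 transcription factors, at 0.351, 12.3, 0.0713 and 1.61 FPKM. Kctd15 missed the limit in KO CD44hi, yet its ratio there was 22.6 (7.48 to 112), beside 35.2 (13.4 to 131) in iNKT. Fgf18, a secreted fibroblast growth factor of bone and lung development, was at 0, 11.6, 0.357 and 0.179 FPKM, so that KO iNKT alone held it above 1 FPKM. Cldn10, a tight junction claudin, was at 0.522, 11.3, 0.637 and 1.22 FPKM, and its CD44hi ratio of 1.92 (0.962 to 4.40) has an interval that includes 1.

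Several genes with known roles in neurons were in this group; they were put together after their values were seen. Nos1, the neuronal nitric oxide synthase, was at 0.0463, 6.59, 0.0753 and 0.132 FPKM. Galr3, a receptor for the neuropeptide galanin, was at 0.536, 6.10, 0.615 and 1.31 FPKM. Mtap2 (now Map2), a microtubule protein of dendrites, was at 0.259, 5.80, 0.945 and 0.605 FPKM. Mtap2 was higher in KO in iNKT, by a ratio of 22.3 (10.6 to 56.4), and lower in KO in CD44hi, by a ratio of 0.641 (0.469 to 0.872). Chl1, an adhesion molecule of the L1 family, was at 0, 4.63, 0.00696 and 0.0943 FPKM. Flrt2, a transmembrane protein of axon guidance, was at 0.0842, 3.33, 0.381 and 0.218 FPKM, again with KO below WT in CD44hi (0.572 (0.365 to 0.890)). Lgi2 was at 0.112, 4.47, 0.0609 and 0.665 FPKM, with KO above WT in both pairs. Cadps2, a factor of dense-core vesicle release, was at 0.0434, 2.17, 0.0411 and 0.137 FPKM. Of 220 silent genes of adhesion and axon guidance families 5 (2.27%) were members, Chl1, Cldn10 and Flrt2 from KO iNKT and Cdh1 and Cdh5 from KO CD44hi; of 243 silent ion channel genes 1 (0.412%) was, Kcns3. The share over all silent genes was 1.36%.

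Of 41 imprinted genes in the files, 29 were silent in both WT libraries and 2 of these were members, both gained in KO iNKT alone. Over all silent genes, 1.36% were members and 0.823% were gained in KO iNKT. Grb10 (GRCm38 chromosome 11, 11930508 to 12038683, minus strand), an adaptor that restrains insulin receptor signalling, was at 0, 8.60, 0.0115 and 0.396 FPKM. Dlk1, a non-canonical Notch ligand, was at 0.101, 4.2, 0.0273 and 0.573 FPKM. In CD44hi both stayed below 1 FPKM, with ratios of 34.4 (6.05 to 1426) and 21 (2.68 to 683), wide because WT stood for about 1 fragment. Over the 15 imprinted genes measured in the iNKT pair, 6 were 2-fold higher in KO (Igf2r, Dlk1, Meg3, Rian, Cdkn1c and Grb10) and 4 were lower, with 6.03% and 3.1% of all measured genes so called. In the CD44hi pair 0 of 9 were higher and 1 lower, with 2.37% and 1.15% of all measured genes so called.

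Enzymes and structural proteins were also in this group. Gadl1, a decarboxylase of amino acid metabolism, was at 0.561, 9.19, 0.00761 and 0.974 FPKM, of which the WT CD44hi value is below 1 fragment. Moxd1, a monooxygenase-like protein, was at 0.134, 6.28, 0.0182 and 0.0961 FPKM. Sardh, the mitochondrial sarcosine dehydrogenase, was at 0.311, 5.51, 0.145 and 1.56 FPKM. Sardh was thus higher in KO in both cell types, with ratios of 17.7 (8.30 to 44.6) and 10.8 (5.95 to 21), while Moxd1 stayed under 0.1 FPKM in CD44hi. Gstm1, a glutathione transferase, was at 0.355, 4.66, 0.794 and 0.779 FPKM, and its CD44hi ratio was 0.981 (0.491 to 2.02). Pdzd2, a PDZ-domain protein, was at 0.835, 5.09, 0.238 and 1.98 FPKM. It lay just under the limit in KO CD44hi, where its ratio was 8.32 (6.16 to 11.4). Oaf was at 0.620, 5.25, 0.553 and 1.54 FPKM. Pkp2, a desmosome protein, was at 0, 4.47, 0.0391 and 0.456 FPKM. Strc, which encodes stereocilin of inner ear hair cells, was at 0.418, 4.13, 0.302 and 0.149 FPKM, with KO below WT in CD44hi. Cpeb1, a regulator of poly(A) tails, was at 0, 3.78, 0.363 and 0.779 FPKM. Pkp2 and Cpeb1 were higher in KO in both pairs.

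**Figure D3:**
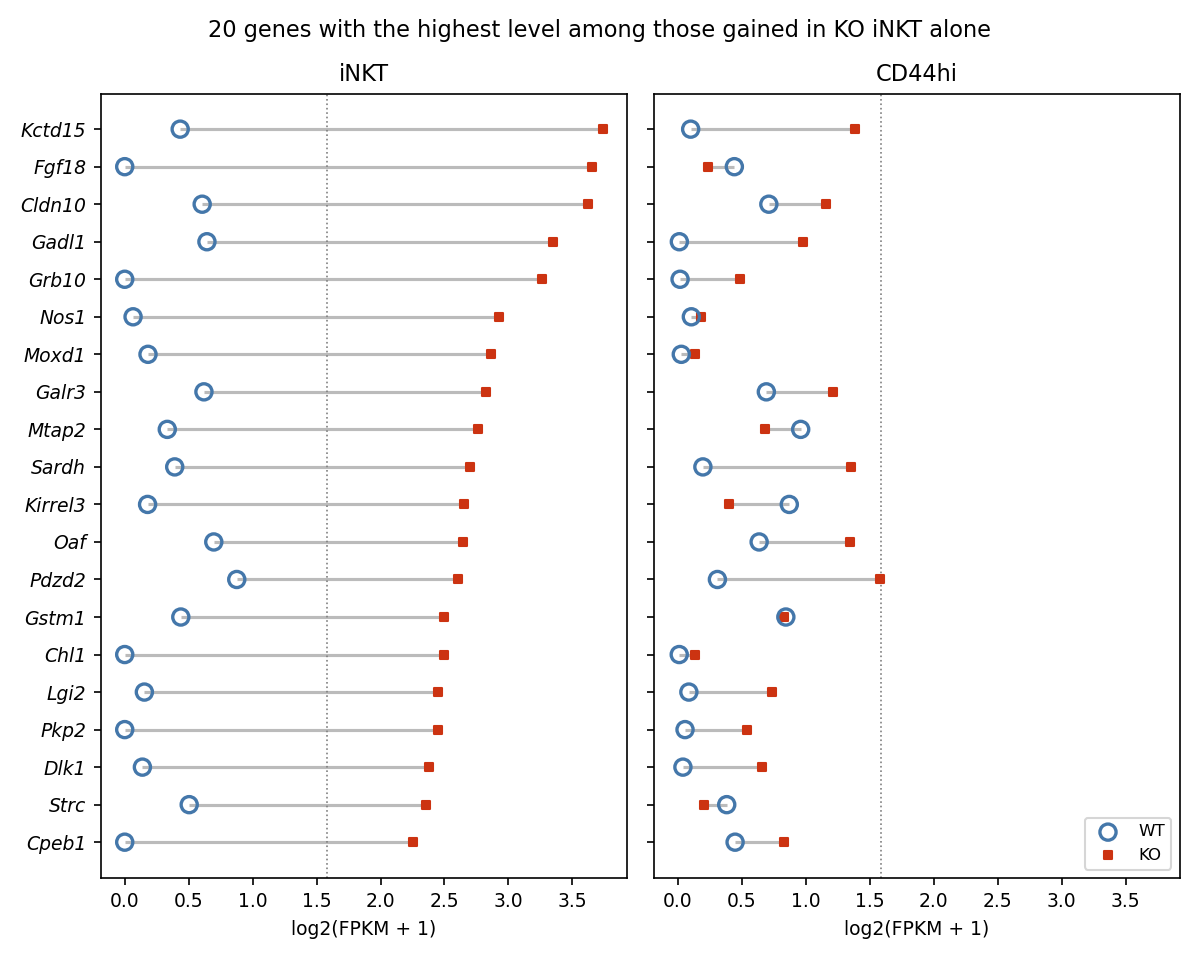
The 20 genes with the highest KO iNKT level among the 55 gained in KO iNKT alone, as log2(FPKM + 1) in the iNKT pair (left) and the CD44hi pair (right); open circles are WT, squares are KO, each 1 library, and the dotted line is the limit of 2 FPKM. In the CD44hi pair no square passes the line, with Pdzd2 (1.98 FPKM) and Kctd15 (1.61 FPKM) nearest, and Fgf18, Mtap2, Kirrel3, Strc and, by a very small margin, Gstm1 have KO to the left of WT.

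Lower members of the group differed in support. Col1a1, the collagen chain of fibroblasts and bone, was at 0.129, 2.43, 0.666 and 1.25 FPKM, with an iNKT ratio of 18.8 (6.77 to 67.9). The stromal and endothelial list, in which it stands, summed to 22.6, 56.0, 46.6 and 55.5 FPKM, and 19 of its 24 markers were listed at 0 in each iNKT library. Pecam1, which T cells also express, made up most of that sum, at 22.1 and 52.4 FPKM in iNKT; the part of stromal cells was not tested. Pik3r3, a regulatory subunit of PI3 kinase, was at 0.444, 3.17, 0.437 and 1.87 FPKM, with an iNKT ratio of 7.15 (3.74 to 13.8). The next genes rested on few fragments. Myl1, a myosin light chain of fast muscle, was at 0, 2.04, 0 and 0 FPKM, and its single value stood for about 8.46 fragments. Apoa2, an apolipoprotein of liver, was at 0, 2.82, 0.497 and 0.623 FPKM, about 5 fragments in KO iNKT. Hist1h3i was at 0.863, 2.02, 0.405 and 0.641 FPKM, has near-identical copies, as does Hist1h3d, and stood for 2.37 fragments in KO iNKT, with a ratio of 2.33 (0.0963 to 109).

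The other genes gained in KO iNKT alone included Tns4, Tmod1, Prss50, Ispd, Kirrel3, Morn1, Myo1d, Mpp4, Nt5dc2, Echdc2, Ak8, Epdr1, Slc39a5, Ap1m2, Prss41, Rad54b, Ccbl2, Dapk1, Hist1h3d, Sbsn, Prodh, Rprm, Ckap4, Slc35f5, Fbln1, Enox1, Rassf6 and Sult6b1. They lay between 2.03 (Sult6b1) and 5.28 FPKM (Kirrel3) in KO iNKT. The Mpp4 value is uncertain and is not given. Tmod1 overlaps Tstd2 on the opposite strand, and the library kit does not keep the strand.

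The CD44hi values of the genes gained in KO iNKT alone were capped by the rule, below 1 FPKM in WT and below 2 FPKM in KO, which by itself favours KO above WT. With a minimum of 0.5 FPKM in a CD44hi library, 40 could be compared; 35 (87.5%) were higher in KO CD44hi, and 22 (55%) were at least 2 times as high. Among 724 silent genes that were not gained, with the same caps and minimum level, 70.4% were higher in KO CD44hi and 30.4% at least 2 times as high. In the iNKT pair, under the same caps, of 16 genes gained in KO CD44hi alone and at 0.5 FPKM or more in iNKT, 12 (75%) were higher in KO iNKT, beside 75.5% of 554 genes not gained. At least 2 times as high were 11 of the 16 (68.8%), beside 52.9%. The median log2(FPKM + 1) difference over all 116 genes, measured in that pair or not, was 1.3 in iNKT and 0.98 in CD44hi. Over all genes at 1 FPKM or more in either library of a pair it was 0.06 and 0.01. The rule makes the members' medians high and the 2 sets differ in level, so nothing is read from this.

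All 46 genes gained in KO CD44hi alone had a WT CD44hi value above 0, with a median of 0.568 FPKM. The median ratio was 4.48. In both iNKT libraries 17 of the 46 were listed at 0, beside 6036 of 8392 silent genes that were not gained. Of the 46 genes, 9 stood in a list of markers of other cells, as did 1 of 55 gained in KO iNKT alone (Col1a1) and 1 of 15 gained in both (Sox13). How many of all silent genes stand in these lists together was not counted, so nothing is read from these numbers. By list, members among the silent genes were 4 of 19 (red cell), 3 of 22 (stromal and endothelial) and 1 of 25 (neutrophil and granulocyte). The plasmacytoid dendritic cell, plasma cell and gamma delta T cell lists gave 1 of 1 each. Silent genes of the platelet (18), B cell (2), myeloid (2) and NK and ILC1 (1) lists gave 0 members. Over all silent genes the share was 1.36%. The summed levels of these lists are given beside the genes below; the part of such cells in the gains was not tested.

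Red cell genes gave 4 members among 19 silent in both WT libraries, beside 1.36% of all silent genes. Hba-a2 (GRCm38 chromosome 11, 32296489 to 32297298, plus strand), an alpha globin, was at 0.00388, 0.00434, 0.00219 and 38.0 FPKM, the highest level of any member. Its first 3 values are below what 1 fragment is worth, and its near-identical copy Hba-a1 was at 15.8, 12.6, 115 and 509 FPKM, so the split of fragments between the copies is uncertain. Hemgn, an erythroid nuclear protein, was at 0.368, 0.170, 0.424 and 3.08 FPKM. Rhd, the Rh antigen, was at 0, 0.273, 0.481 and 2.50 FPKM. Aqp1, a water channel of red cells and vessels, was at 0, 0, 0.616 and 2.46 FPKM. The 35 red cell markers in the files summed to 145, 166, 265 and 898 FPKM, and 10 of 25 measured in CD44hi were 2-fold higher in KO and 0 lower, beside 2.37% and 1.15% of all genes.

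Upb1, an enzyme of pyrimidine breakdown that stands in the plasmacytoid dendritic cell list, was at 0, 0, 0.895 and 8.19 FPKM, with a ratio of 9.14 (6.86 to 12.6). The 20 markers of that list summed to 166, 131, 308 and 1101 FPKM. Of these, 16 of 20 were 2-fold higher in KO CD44hi and 0 lower, beside 2.37% and 1.15% of all measured genes. Siglech, a defining marker of these cells, was at 0, 0, 11.1 and 75.7 FPKM. Tnfrsf17, the plasma cell receptor BCMA, was at 0, 0, 0.518 and 2.34 FPKM, and the plasma cell list summed to 58.7, 52.6, 105 and 231 FPKM. Of 7 plasma cell markers measured in CD44hi, Igj and Tnfrsf17 were 2-fold higher in KO and 1 was 2-fold lower. Of all measured genes, 2.37% and 1.15% were so called. Prg2, the major basic protein of eosinophils, was at 0, 0, 0.497 and 2.74 FPKM, while the neutrophil and granulocyte list summed to 14.1, 6.80, 34.6 and 38.1 FPKM with Elane listed at 0 throughout. For that list the CD44hi sums were close, unlike Prg2 itself. Cdh5, the cadherin of endothelium, was at 0, 0, 0.638 and 2.26 FPKM. Kdr, the receptor VEGFR2, was at 0, 0, 0.530 and 2.09 FPKM. The stromal and endothelial list, which holds both, summed to 46.6 and 55.5 FPKM in the CD44hi pair. Pecam1, which T cells also express, made up 38.4 and 42.9 FPKM of these sums, so they say little of the other markers. At 1 FPKM or more were 2 of its 24 markers in WT CD44hi and 5 in KO CD44hi.

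**Figure D4:**
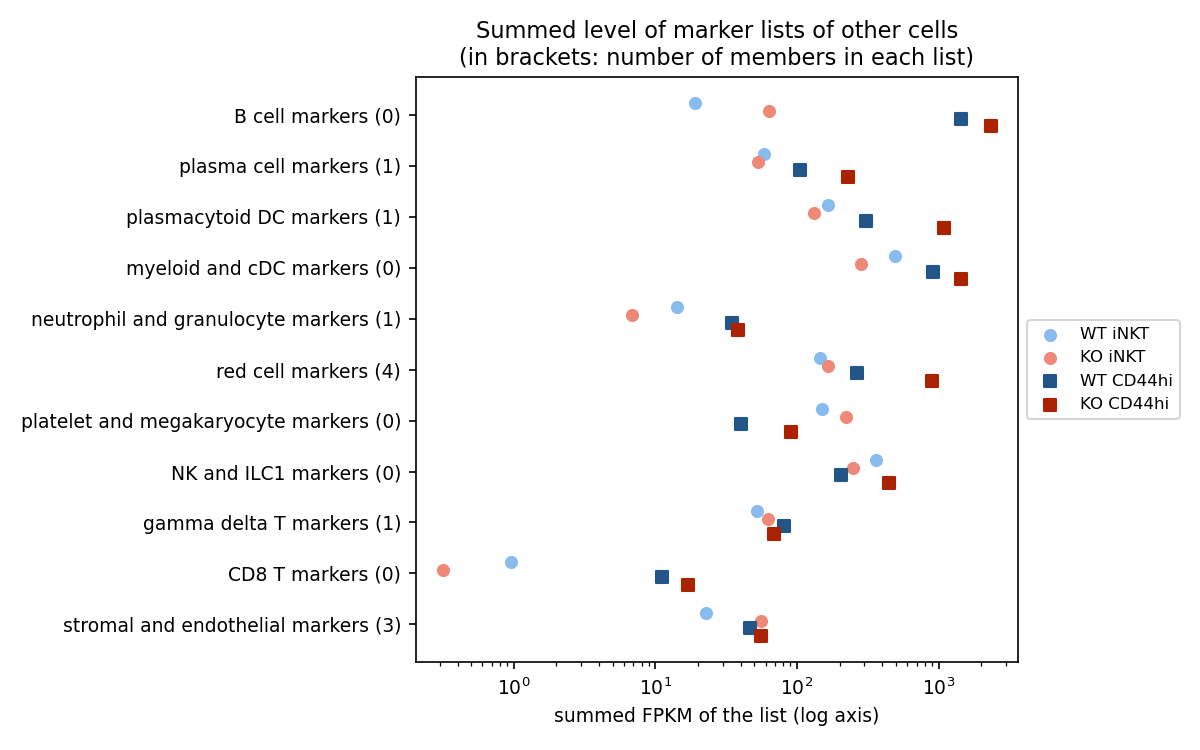
Summed FPKM of each list of markers of other cell types, on a log axis, with 1 point for each of the 4 libraries and the number of the 116 genes in each list in brackets. Such lists can hold genes that the sorted cells express themselves. Of 14 NK and ILC1 markers, 10 were at 1 FPKM or more in WT iNKT, where that list summed to 360 FPKM. KO CD44hi lies to the right of WT CD44hi in all lists except the gamma delta T cell list, with 308 and 1101 FPKM for plasmacytoid dendritic cells and 265 and 898 FPKM for red cells.

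Genes in no marker list made up the rest of the group. Hs3st1, a heparan sulfate sulfotransferase, was at 0, 0, 0.992 and 6.30 FPKM. Epha2, the other Eph receptor, was at 0, 0, 0.521 and 3.93 FPKM, with a ratio of 7.55 (5.34 to 10.8). Neither had a fragment in iNKT. Cdh1, which encodes E-cadherin, was at 0.0460, 0, 0.511 and 4.40 FPKM, with a ratio of 8.61 (6.28 to 12.2). The desaturase genes Fads2 and Fads3 lie 2.66 kb apart on chromosome 19 and were both members. Fads2 was at 0, 0, 0.724 and 4.68 FPKM. Fads3 was at 0, 0, 0.480 and 2.65 FPKM. Their neighbour Fads1 was at 4.28, 2.37, 6.08 and 5.80 FPKM, with no such difference in CD44hi.

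Slc41a2, a magnesium transporter, was at 0.694, 0.0857, 0.678 and 4.07 FPKM. B3gnt8, a glycosyltransferase, was at 0, 0, 0.915 and 4.02 FPKM. Serpinh1, a collagen chaperone, was at 0, 0, 0.570 and 3.85 FPKM. Slc41a2 was the one of these detected in iNKT, where KO was below WT. Zc3h12c, an RNA-binding protein, was at 0, 0, 0.992 and 3.47 FPKM. Lefty1, an inhibitor of Nodal signalling, was at 0, 0, 0.806 and 3.30 FPKM. Lifr, the receptor for leukaemia inhibitory factor, was at 0, 0.0189, 0.727 and 3.26 FPKM. These lay in a narrow band of KO CD44hi levels. Klk1b4, a kallikrein with close copies, was at 0, 0, 0.395 and 3.07 FPKM. Mgl2, a lectin of macrophages and dendritic cells, was at 0, 0, 0.234 and 3.07 FPKM. Its neighbour Clec10a, a related lectin, was at 1.34 and 16.2 FPKM in the CD44hi pair. Arl11 was at 0.757, 0, 0.986 and 3.09 FPKM. Ptprf, a receptor phosphatase, was at 0.338, 0.529, 0.550 and 2.79 FPKM.

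A ratio of 10 or more was found for 5 genes of the group and a lower one for 40; Hba-a2 had none. Besides Mgl2 (13.1 (5.97 to 37.4)) these were Kcns3, Mpped2, Vmn2r95 and Gh. Kcns3, a potassium channel subunit, was at 0, 0.202, 0.0192 and 2.01 FPKM. Mpped2 was at 0.236, 0.874, 0.0242 and 2.20 FPKM. Both had a WT CD44hi value of about 1 fragment, so their ratios are known only to lie above 16.3 and 13.5. Vmn2r95, a pheromone receptor gene with close copies, was at 0.365, 1.18, 0.0412 and 2.87 FPKM. Gh, which encodes growth hormone, was at 0, 1.77, 0.0866 and 2.22 FPKM and so came close to the limit in KO iNKT as well.

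The other genes gained in KO CD44hi alone were Gas7, Pnck, Lynx1, Atp2a1, Fbxo30, Mageh1, Camk1, Ica1, Snhg10, Gspt2, Zdhhc14, Gkap1, Eif2c4, Ccdc106, Duxbl, Asph, Srpk3 and Pkib. They lay between 2.01 (Pkib) and 2.97 FPKM (Pnck) in KO CD44hi. Atp2a1 overlaps Rabep2 on the opposite strand, itself at 25.1 and 21.4 FPKM in the CD44hi pair, and Camk1 overlaps Ogg1 in the same way. Duxbl has close copies and was summed over more than 1 row.

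**Figure D5:**
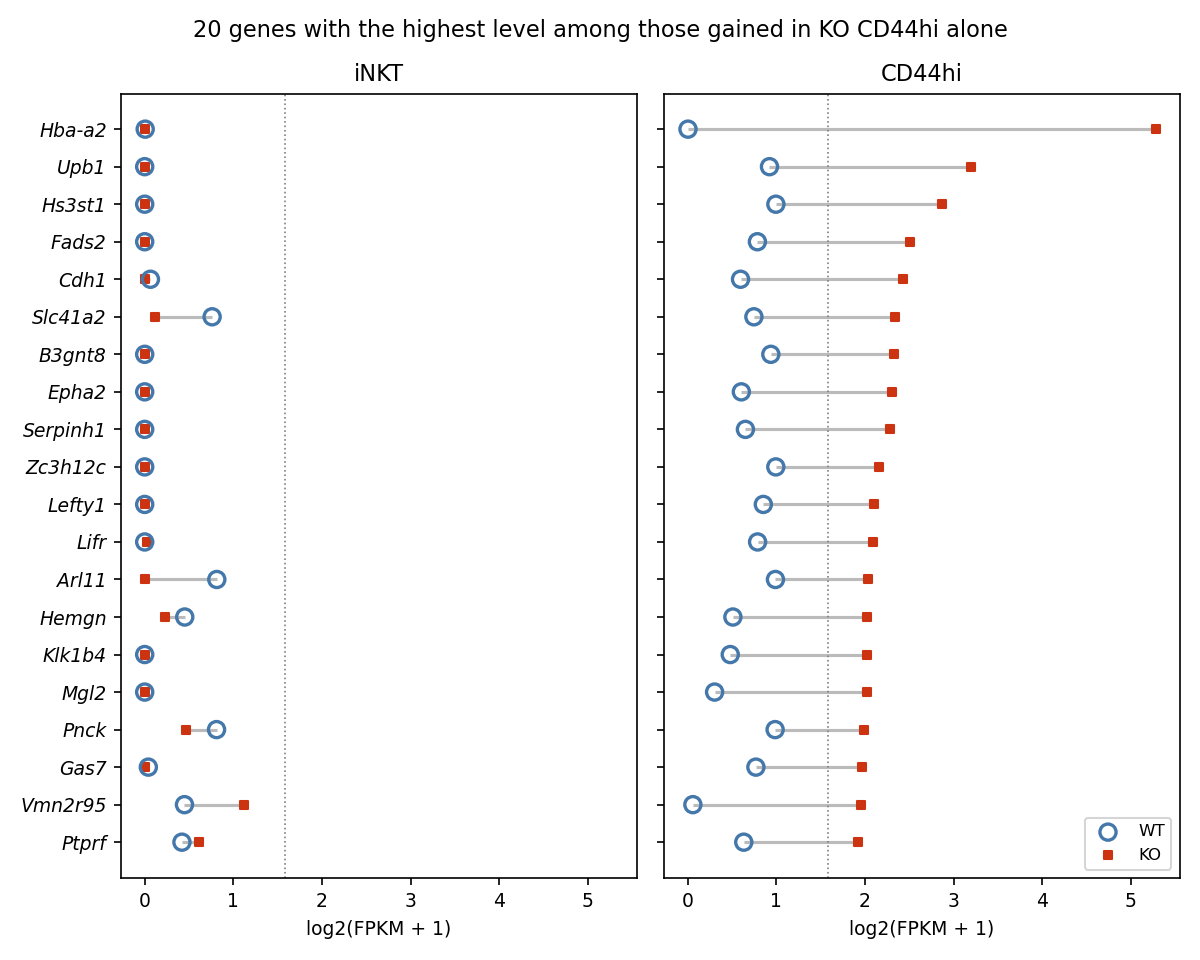
The 20 genes with the highest KO CD44hi level among the 46 gained in KO CD44hi alone, as log2(FPKM + 1) in the iNKT pair (left) and the CD44hi pair (right); open circles are WT, squares are KO, each 1 library, and the dotted line is the limit of 2 FPKM. Hba-a2 stands apart at 38.0 FPKM in KO CD44hi, and most of these genes are at or near 0 in both iNKT libraries. Most silent genes that were not gained were listed at 0 there as well (6036 of 8392).

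A list of developmental transcription factors known as Polycomb targets, without the Hox genes, gave 0 members among 172 that were silent in both WT libraries. Germ line genes gave 0 members among 62 silent ones, and Zfp zinc finger genes 0 among 101. Over all silent genes the share was 1.36%, and nothing is read from these small counts. Solute carriers and related transporters gave 6 members among 234 silent genes (2.56%, beside 1.36% of all silent genes), among them Slc41a2, Slc39a5, Atp2a1, Aqp1 and Slc35f5. Slc39a5, a zinc transporter, was at 0, 2.78, 0.0302 and 0.976 FPKM. Slc35f5 was at 0, 2.25, 0.702 and 0.809 FPKM. Atp2a1, the calcium pump of fast muscle, was at 0.379, 0.470, 0.665 and 2.66 FPKM. The first pair passed the limit in KO iNKT and the last in KO CD44hi. G protein-coupled receptors gave 3 among 1663 (Fzd6, Galr3 and Vmn2r95), and proteases and their inhibitors 4 among 210 (Serpinh1, Prss50, Klk1b4 and Prss41). Prss50, a protease of testis, was at 0, 3.44, 0.378 and 0.316 FPKM. Prss41 was at 0.213, 2.56, 0.462 and 0.174 FPKM. In CD44hi neither was higher in KO. The matrix protein Fbln1 was at 0.613, 2.21, 0.183 and 0.564 FPKM. Myo1d, an unconventional myosin, was at 0.0376, 2.99, 0.224 and 0.568 FPKM. Sult6b1, a sulfotransferase, was at 0.730, 2.03, 0.820 and 0.915 FPKM. Of these, Fbln1 and Myo1d had a CD44hi ratio with an interval above 1, 3.08 (1.44 to 6.59) and 2.53 (1.55 to 4.28).

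Gene length and position were not used by the rule. The 116 genes spanned a median of 39.6 kb of the genome, silent genes that were not gained 13.9 kb, and genes at 1 FPKM or more in a WT library 23.2 kb. A span of 100 kb or more was found for 29 members (25%), 14.2% of silent genes not gained and 11.0% of expressed genes. Shared members had a median span of 64.2 kb, those gained in KO iNKT alone 37.6 kb and those gained in KO CD44hi alone 23.8 kb. Among chromosomes with a member, the members' share of the named genes ran from 0.222% on chromosome 8 (2 of 899) to 1.21% on chromosome 4 (13 of 1072), and was 0.868% on the X chromosome (6 of 691). Of the nearest protein-coding genes flanking those gained in KO iNKT, 78 were measured and 9 (11.5%) were 2-fold higher in KO iNKT, beside 6.03% of all genes. They included Tmie next to Prss50 (3.29 and 23.8 FPKM) and both neighbours of Tns4, Igfbp4 (15.4 and 51.2 FPKM) and Ccr7 (13.2 and 34.6 FPKM). Next to those gained in KO CD44hi, 6 of 71 (8.45%) were 2-fold higher, beside 2.37%: Fads2 and Fads3, which are members, Klk1b5, Clec10a, Dusp9 and Ly6d, which is in the plasmacytoid dendritic cell list. Fads2 and Fads3 are each other's neighbour and were chosen by the rule, which favours such a difference. The 8.45% includes them, so it cannot be compared with 2.37% on equal terms.

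The limits cut through a continuous range of values. Just inside the KO iNKT limit lay Hist1h3i (2.02 FPKM), Sult6b1 (2.03) and Rassf6 (2.04), and just outside lay Camk2a (1.98), Arhgef25 (1.98) and Zranb3 (1.95). Just inside the KO CD44hi limit lay Kcns3 (2.01), Pkib (2.01) and Srpk3 (2.02), and just outside lay P2ry12 (1.96) and Marco (1.95), with Atg4c closer still. On the WT side, Ccbl2 was inside at 0.948 FPKM in WT iNKT, while Tdgf1 was outside at 1.01 although it reached 5.51 FPKM in KO iNKT. In WT CD44hi, Hs3st1 was inside at 0.992 FPKM and Havcr1 outside at 1.03. Of 70 genes gained in KO iNKT, 15 were listed at 0 in WT, 53 had an interval of the ratio that started above 1, and Hist1h3d and Hist1h3i did not. Of 61 gained in KO CD44hi, 60 had an interval, and each started above 1. The rule itself sets each of these ratios above 2, so the counts of intervals describe fragment support only and are no evidence for a gain. Differences between mice or sorts are not covered by these intervals.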

How the data were processed

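RNA was measured in 4 libraries, 1 per group, so nothing has a replicate check and neither tests nor p-values were computed. Each library's deposited table pairs gene symbols with FPKM, per the file headers. As tools and build, the submitters' processing notes list Bowtie2 2.0.0 with TopHat 1.3.2, Cufflinks 2.0.2 and mm10. The annotation and filters are not given in the sources used here. The kit, per the labels' protocols, was TruSeq v2, which keeps no strand.

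FPKM of repeated symbols were summed over the 23258 symbols present in all files. Genes were matched to GENCODE M21 (GRCm38, that is mm10), with a match for all 116. Fragments were estimated from FPKM steps of 1714 genes with a single transcript of 1500 to 20000 bases, less 200 bases each. Differences use log2(FPKM + 1), which understates changes of low genes, and "2-fold" means a difference of 1 on that scale; ratios are of FPKM itself. "Measured" means 1 FPKM or more in either library of a pair. The depth estimate and the counts were tested on simulated data. The members and gene lists were chosen with earlier results of these data known. Genes given with values were the 15 shared members, the 20 highest in each KO library, up to 6 per list or family and those next to the limits; others were chosen after their values were seen. Python 3.11.15, pandas 2.3.3 and SciPy 1.17.1 were used. Alternatives were other limits, scalings, pseudocounts and row handling. Of the members, 1 is not reported here.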

Additional observations from a re-analysis of the deposited data

Results flagged for a closer look

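In 4 genes the cell types went opposite ways: KO reached 2 FPKM in one pair, while in the other pair WT was at 0.5 FPKM or more and at least 2 times KO. Each group is 1 library, and the difference was not tested. As 4 FPKM values, the iNKT pair first and WT before KO, Kirrel3, an adhesion molecule of the immunoglobulin superfamily, was at 0.132, 5.28, 0.828 and 0.319; its log2(FPKM + 1) differences were 2.94 apart. Ispd was at 0, 3.31, 0.781 and 0.207, with differences 2.67 apart. Slc41a2 was at 0.694, 0.0857, 0.678 and 4.07, with differences 2.24 apart. Arl11 was at 0.757, 0, 0.986 and 3.09, with differences 1.86 apart. The ratio in the opposite pair was 0.385 (0.227 to 0.634) for Kirrel3, 0.265 (0.118 to 0.527) for Ispd and 0.123 (0.0129 to 0.492) for Slc41a2; Arl11 was listed at 0 in KO iNKT.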

How the results depend on the processing

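The counts depended on the limits. With silence set at below 0.5 FPKM in place of 1, 49 genes were gained, 35 in KO iNKT, 20 in KO CD44hi and 6 in both, and 14 with the genotypes exchanged. With a gain set at 4 FPKM in place of 2 these counts were 34, 27, 11, 4 and 9. On the iNKT pair alone, with no limit on WT CD44hi, 182 genes were gained in KO iNKT, and on the CD44hi pair alone 84 in KO CD44hi; both were chosen after seeing the data. The total of 116 stayed within 1.5 times when the highest row per symbol was kept (115) and after rescaling to the upper quartile (120). It also did with at least 5 fragments (115) and without genes in a marker list (105). As TPM it was 157, but there the limits of 1 and 2 stood for lower FPKM, since FPKM summed to 439864 to 477398 per library. The TPM count is therefore at unlike limits. The other TPM values below share this, because the pseudocount and the minimum level were kept too. Asking for a counting interval above 2, also chosen after seeing the data, gave 97 genes, and 30 with the genotypes exchanged. In both directions the rule already sets the ratio above 2. The median log2 difference over the members was 1.75 in iNKT and 1.28 in CD44hi with a pseudocount of 0.5, 2.48 and 1.82 with 0.1, 1.91 and 1.29 over genes gained in that library, and 1.83 and 1.29 as TPM. The share of genes gained in KO iNKT alone that were higher in KO CD44hi was 79.6% with a minimum of 0.2 FPKM or as TPM, both chosen after seeing the data; a minimum of 1 FPKM gives 100% by construction, since WT CD44hi is held below it, and says nothing. The planned comparison of CpG-rich promoters is void, because 79.3% of the members had a promoter, so neither it nor its alternatives are given. No paired analysis was possible because each group holds 1 library. WT iNKT values rest on few fragments, since 1 fragment in 2 kb is worth 0.108 FPKM there.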
